A study of Homo sapiens with 17 samples.

Results

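Expression of 35 p53 target genes was described across 17 RNA sequencing libraries of IMR90 ER:RAS cells. The genes are known transcriptional targets of p53, chosen by name from the pathway with the CDK inhibitors and the BCL2 family left out, and each was found by its Ensembl identifier among the 62754 gene rows of every library. All 35 passed the filter on low counts, as did 19473 genes in all. IMR90 ER:RAS cells are human lung fibroblasts that carry, from a retroviral pLNC vector, a RAS oncoprotein joined to part of the oestrogen receptor. 4-hydroxytamoxifen (4OHT) switches this oncogene on. The groups were DMSO with a non-targeting siRNA (DMSO siNT, n = 5), 4OHT with a non-targeting siRNA (4OHT siNT, n = 6) and 4OHT with an siRNA against SMARCA4 (4OHT siSMARCA4, n = 6). SMARCA4 encodes a catalytic subunit of SWI/SNF chromatin remodellers. In all groups the siRNA went in a day before 4OHT or DMSO and RNA was taken 7 days after induction. No library combined DMSO with siSMARCA4, so the knockdown was measured in 4OHT only, and the sources used here do not say whether the libraries of a group came from separate cultures, so the p-values measure the spread between libraries, which may be technical. Each label also carries an siRNA number, 2 or 4, and a tag ending in V or VM, whose meaning is not given. All 4OHT siNT libraries carried VM. V occurred only in DMSO siNT libraries 2-1V and 2-2V and 4OHT siSMARCA4 libraries 2-3V, 4-2V and 4-3V. The tag was thus partly mixed with the group and with the siRNA number.

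p53 is a transcription factor that is held at a low level by MDM2, a ubiquitin ligase that is itself a p53 target, and that accumulates when DNA damage or oncogene signalling blocks its degradation. It binds paired decameric elements near its target genes, which arrest the cell cycle, repair DNA, change metabolism and autophagy, or kill the cell through death receptors and mitochondria. In oncogene-induced senescence the p53 pathway is one of the barriers that hold cells in arrest.

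Library totals ranged from 39.1 to 69.0 M counts (M, 1e6) with a median of 52.6 M. SMARCA4 had 268 ± 13.2 CPM (SD, n = 6) in 4OHT siNT, 88.1 ± 22.8 CPM (SD, n = 6) in 4OHT siSMARCA4 and 198 ± 19.2 CPM (SD, n = 5) in DMSO siNT, where CPM are counts per 1e6 scaled for composition between libraries. The knockdown difference was -1.61 log2 (SE 0.13, edgeR adjusted p 5.13e-07) and no siSMARCA4 library reached the lowest siNT library. Of 9 fibroblast markers, 7 were lower in 4OHT siNT than in DMSO siNT, as were 27.4% of all genes tested. With siSMARCA4 7 were lower again, as were 13.8% of all genes tested, VIM and PDGFRA being the exceptions in both. The summed level of the 9 markers ran from 22998 to 27682 CPM in DMSO siNT, from 13475 to 17608 CPM in 4OHT siNT and from 7587 to 10900.2 CPM in 4OHT siSMARCA4. The summed level of 4 leukocyte markers lay between 0.0387 and 0.382 CPM in all libraries, with groups that overlapped. The 3 endothelial markers summed to 0.798 to 1.83 CPM in DMSO siNT, 3.52 to 5.54 CPM in 4OHT siNT and 1.73 to 4.25 CPM in 4OHT siSMARCA4. Of these, VWF rose with 4OHT by 1.76 log2 (edgeR adjusted p 1.24e-05). PECAM1 went from at most 0.0524 CPM in DMSO siNT to 0.791 to 1.11 CPM in 4OHT siNT. It was lower with siSMARCA4, at -1.43 log2 (edgeR adjusted p 0.00460). No DMSO siNT library reached the minimum count of 10 at PECAM1, so the gene passed the filter through the 4OHT libraries alone. Its rise with 4OHT is a description only. The 4 epithelial markers summed to 31.0 to 47.3 CPM in DMSO siNT, mostly from KRT19, to 1.13 to 2.64 CPM in 4OHT siNT and to 0.543 to 1.11 CPM in 4OHT siSMARCA4, with KRT5 at 0 in all 17 libraries. CDH5 was at 0 in DMSO siNT and CD3E at 0 in both siNT groups. The part of these shifts in the results on p53 targets was not tested, and in bulk RNA fewer cells of a kind and less RNA per cell cannot be told apart.

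To show what the pathway's binding site looks like at these genes, a window around the start of each gene's canonical transcript was searched on GRCh38 for the p53 response element. It ran from 2500 bases before to 2500 bases after that start, from which all distances below are counted. At GDF15 the match lies upstream of that start but inside the wider gene span printed further on. The search asked for 2 adjacent copies of a 10-base unit, each with 3 purines, a core of C, 2 bases that are A or T, and G, and then 3 pyrimidines, and it allowed 2 mismatches outside the cores. The motif is its own reverse complement, so that both strands were covered. Such a match was present at 12 of 35 members (34.3%) and at 452 of 20046 protein-coding genes (2.25%). The members were chosen as known p53 targets, so these shares are no test of them. The match was also present at 4 of 27 further p53 targets that are not members (14.8%) and at 0 of 25 regulators of p53. With no mismatch it was present at 2 members, PLK2 and ZMAT3, and at 13 of all protein-coding genes. Of the 13 matches at members, 9 lay in introns and 4 upstream of the start. The matches below are a selection from those at members. They are written 5′ to 3′ on the gene's strand with both cores in capitals. PLK2 and ZMAT3 are the 2 perfect matches, GDF15 had the largest difference with 4OHT, and BTG2, SPATA18, EDA2R and FAS were lower with siSMARCA4. Matches were present at 4 of the 11 members lower with siSMARCA4, at 0 of the 2 higher and at 8 of the 22 not called.
PLK2, 2198 bases upstream of the start, chr5:58462274-58462293, minus strand: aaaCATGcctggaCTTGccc
ZMAT3, intron 1, 1611 bases after the start, chr3:179070188-179070207, minus strand: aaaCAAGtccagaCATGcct
GDF15, 841 bases upstream, chr19:18385308-18385327, plus strand: catCTTGcccagaCTTGtct
BTG2, 1868 bases upstream, chr1:203303642-203303661, plus strand: acgCATGttcaggCATGcat
SPATA18, intron 1, 662 bases after the start, chr4:52051957-52051976, plus strand: ggaCATGtgtgtaCATGccc
EDA2R, intron 1, 505 bases after the start, chrX:66638563-66638582, minus strand: gggCAAGtcagggCTTGtgt
FAS, intron 1, 520 bases after the start, chr10:88991309-88991328, plus strand: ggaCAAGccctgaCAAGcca
A match is a description of the letters and was not tested for binding. Matches were also present at AEN, CCNG1, GADD45A, RRM2B and TNFRSF10B, and at CDKN1A and PMAIP1, which were left out of the members.

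The first comparison asked how the p53 targets stood after oncogene induction. In 4OHT siNT against DMSO siNT, 22 of 35 members rose and 3 fell, where a call is an edgeR adjusted p under 0.05 over all genes tested. Differences below are log2 fold changes unless written as fold. Calls were common in this comparison: 54.4% of all genes were called, 27% higher and 27.4% lower. The median log2 difference of the members was 0.35, against 0.0039 over all genes, and 28 of 35 lay above 0. The libraries of the groups did not overlap for 11 members, against 39.6% of all genes. Of the 25 calls, 17 held whichever single library was left out. Among the VM libraries alone 15 members were higher and 2 lower, where 50.5% of all genes were called, 23.5% higher and 27% lower. Among the libraries of siRNA number 4 alone 13 were higher and 6 lower, where 43% were called, 20.1% higher and 22.9% lower, and among those of number 2 alone 24 were higher and 1 lower, where 53.1% were called, 25.6% higher and 27.5% lower.

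**Figure D1:**
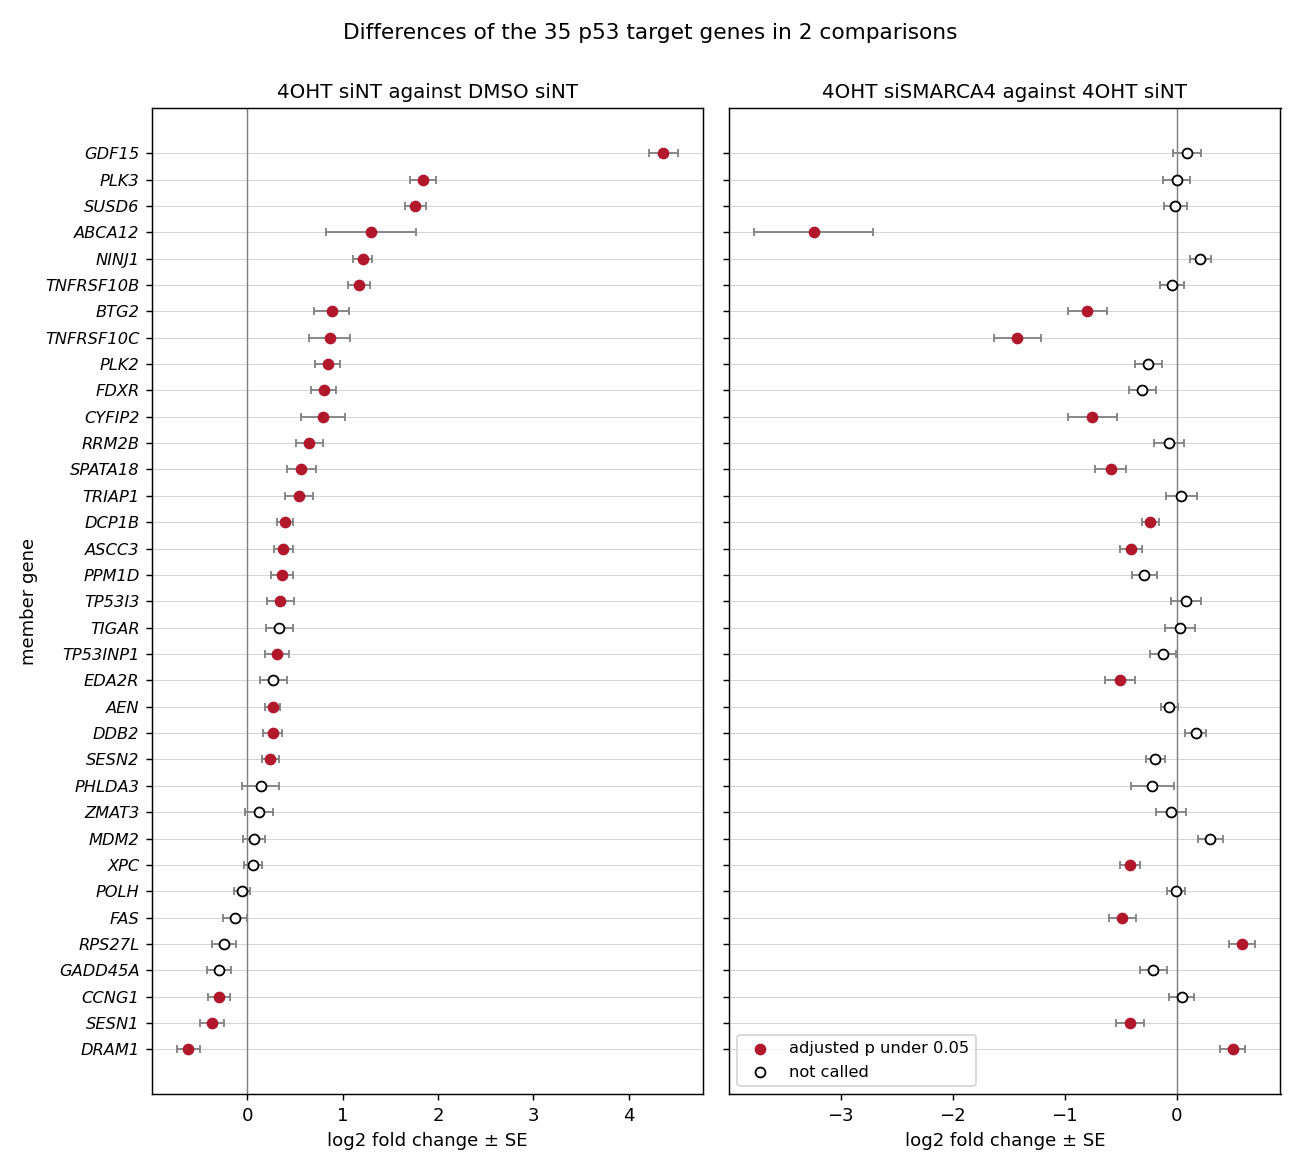
Log2 fold change with its SE for each of the 35 members in 4OHT siNT against DMSO siNT (left) and in 4OHT siSMARCA4 against 4OHT siNT (right), with filled points for an adjusted p under 0.05. On the left 22 filled points lie above 0 and 3 below, and on the right 2 lie above 0 and 11 below.

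**Figure D2:**
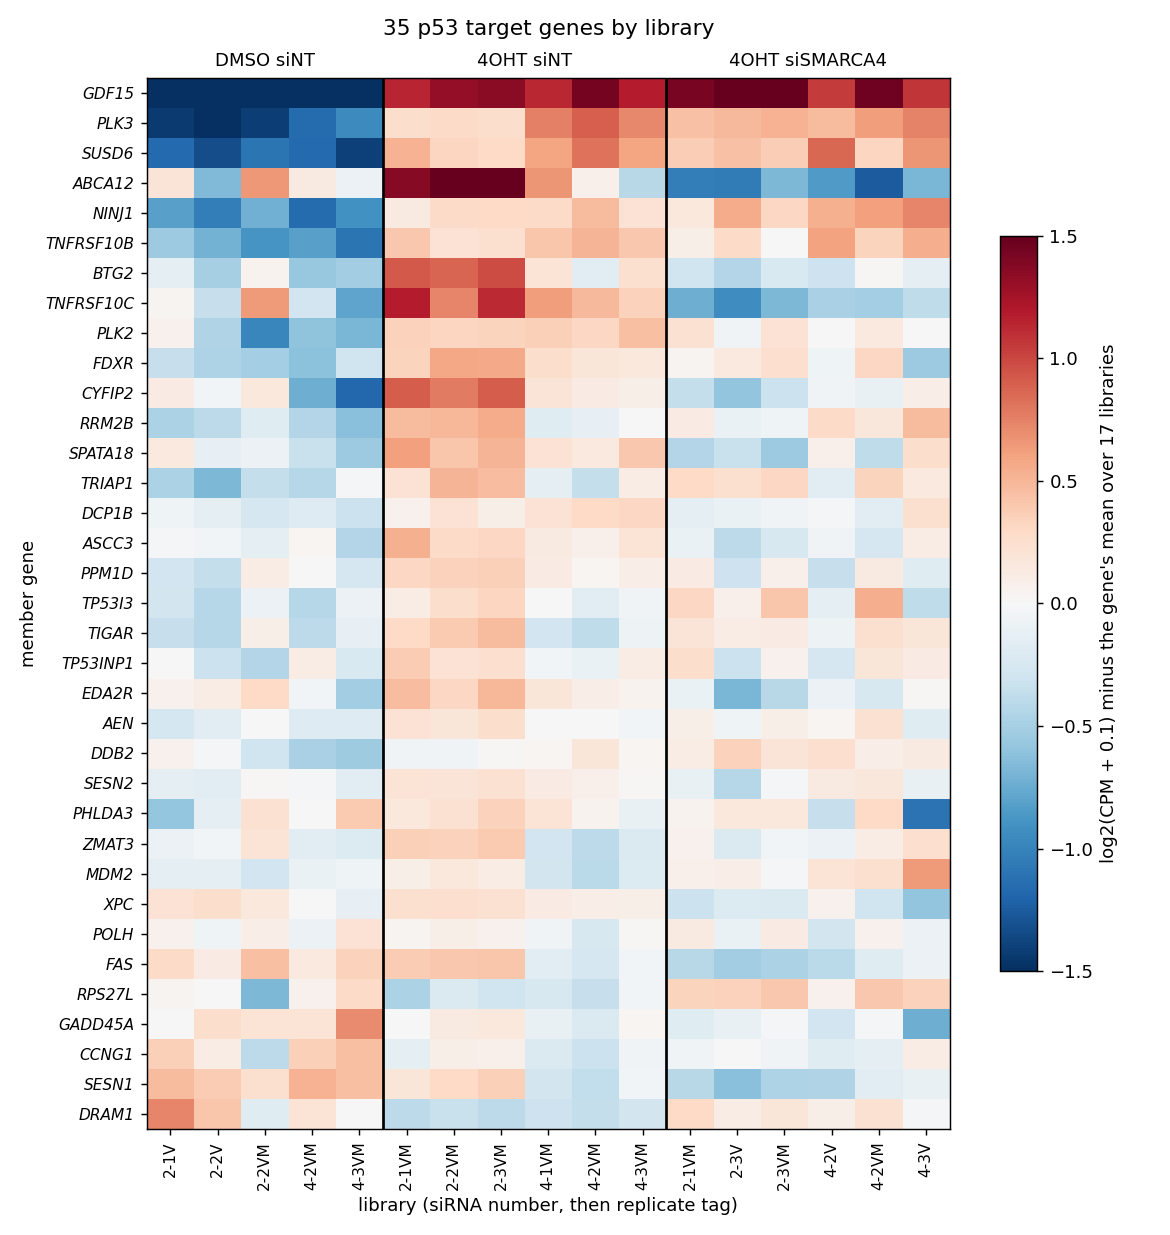
Level of the 35 members in each of the 17 libraries, as log2(CPM + 0.1) minus the gene's mean over all libraries, ordered by the difference between 4OHT siNT and DMSO siNT, with colours that stop at 1.5 in either direction. GDF15, PLK3 and SUSD6 at the top are low in all 5 DMSO libraries, and within 4OHT siNT the 3 libraries of number 2 stand above the 3 of number 4 for BTG2, CYFIP2 and FAS.

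Among the secreted and surface proteins, the largest difference was that of GDF15, a secreted cytokine of the TGF-β superfamily (ENSG00000130513, chr19:18374731-18389176, GRCh38 here and below). Its 5 DMSO siNT libraries held 57.6, 49.1, 66.9, 66.3 and 90.1 CPM, and the 4OHT siNT libraries ran from 1240.2 to 1531 CPM (median 1348). Every 4OHT library lay far above every DMSO library, a 20.6-fold rise or 4.37 log2 (SE 0.16, edgeR adjusted p 1.38e-13). TNFRSF10B, the death receptor for TRAIL also called DR5 (ENSG00000120889, chr8:23020133-23069031), had 200.5, 179.6, 159, 167 and 137 CPM in DMSO siNT and ran from 341 to 419 CPM (median 389) in 4OHT siNT. The groups were apart, and it rose by 1.17 log2 (SE 0.11, edgeR adjusted p 6.94e-08). NINJ1, a membrane protein that mediates plasma membrane rupture (ENSG00000131669, chr9:93121496-93134251), had 38.1, 32.7, 40.5, 30.2 and 35.6 CPM in DMSO siNT and ran from 73.7 to 93.2 CPM (median 82.0) in 4OHT siNT, a rise of 1.21 log2 (SE 0.10, edgeR adjusted p 1e-08). SUSD6, a membrane protein with a sushi domain (ENSG00000100647, chr14:69611596-69715144), had 27.3, 24.3, 28.5, 27.2 and 23.1 CPM in DMSO siNT and ran from 75.2 to 108 CPM (median 89.8) in 4OHT siNT, which is 3.40-fold. The difference was 1.76 log2 (SE 0.11, edgeR adjusted p 2.34e-10), and the lowest 4OHT library was above the highest DMSO library for both of these genes. TNFRSF10C, a decoy receptor for TRAIL that lacks a death domain, rose by 0.86 log2 (edgeR adjusted p 0.00241) at a low level with overlapping libraries. The death receptor FAS, at -0.13 log2 (edgeR adjusted p 0.406), and EDA2R, the receptor of ectodysplasin A2, at 0.27 log2 (edgeR adjusted p 0.108), did not pass the test.

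Of the kinases, both polo-like members rose. PLK3 (ENSG00000173846, chr1:44800377-44805990) had 35.6, 33.3, 36.3, 43.6 and 49.8 CPM in DMSO siNT and ran from 116 to 181 CPM (median 139) in 4OHT siNT, a log2 rise of 1.84 (SE 0.13, edgeR adjusted p 1.46e-09). PLK2 (ENSG00000145632, chr5:58453982-58460139) had 216, 152, 105, 136 and 128 CPM in DMSO siNT and ran from 258 to 282 CPM (median 262) in 4OHT siNT. It rose by 0.84 log2 (SE 0.13, edgeR adjusted p 1.78e-05), and the DMSO library 2-1V stood high without reaching the 4OHT libraries.

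**Figure D3:**
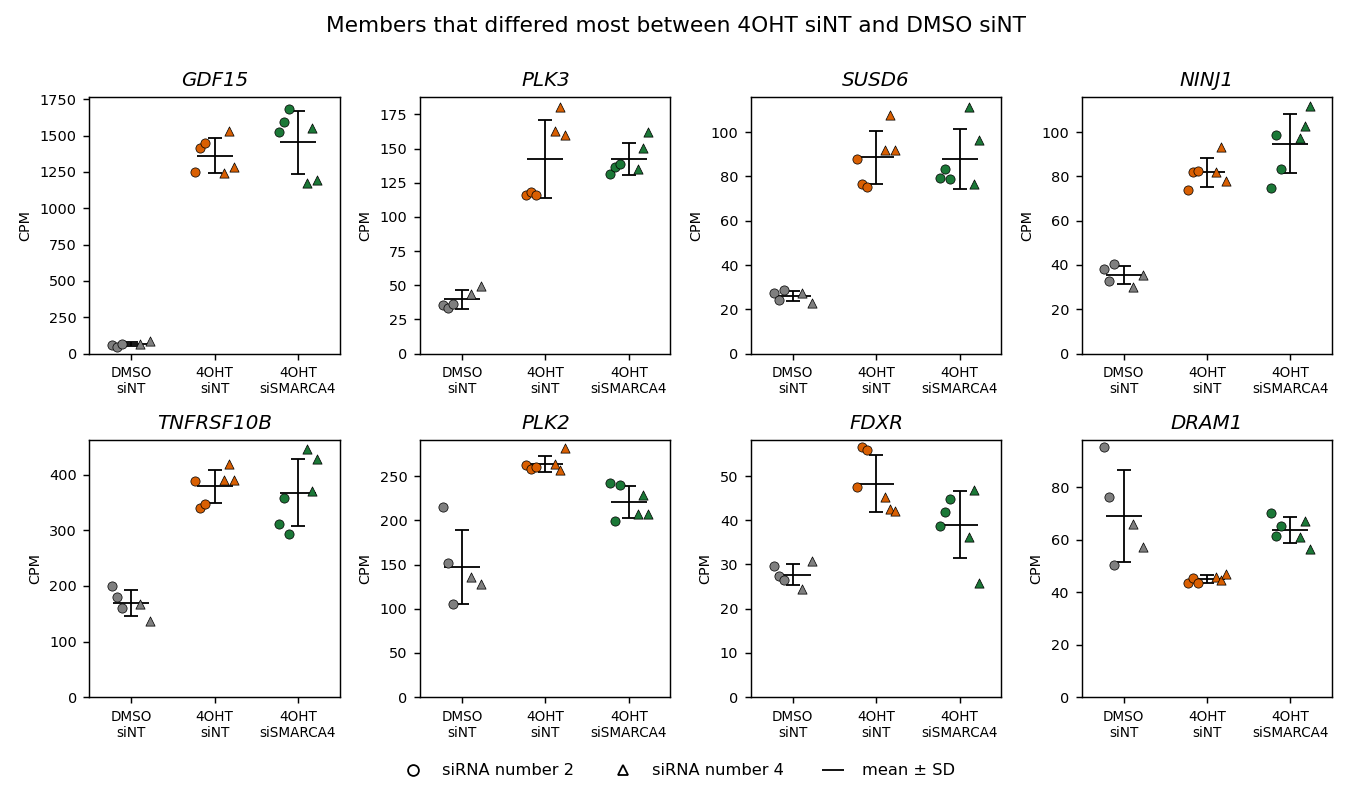
CPM in each library (circles, siRNA number 2; triangles, number 4) with the mean and SD, for the 8 members with the largest differences between 4OHT siNT and DMSO siNT among the called members that averaged at least 1 CPM and had no overlap of libraries. GDF15 rose from at most 90.1 CPM to at least 1240.2 CPM, and DRAM1 is the 1 member of the 8 that was lower in 4OHT siNT.

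Of the feedback regulators of p53, PPM1D rose, CCNG1 fell and MDM2 was not called. MDM2, the ubiquitin ligase that degrades p53 (ENSG00000135679, chr12:68808177-68845544), had 103, 102, 92.8, 106 and 109 CPM in DMSO siNT. In 4OHT siNT it had 120.3, 127 and 122 CPM in the libraries of number 2 and 93.7, 85.7 and 98.5 CPM in those of number 4, so that number 2 stood above the DMSO range and number 4 within or below it. The difference, 0.07 log2 (SE 0.12, edgeR adjusted p 0.634), was not called. PPM1D, a phosphatase that switches p53 signalling off, rose by 0.37 log2 (edgeR adjusted p 0.0106). CCNG1, cyclin G1, which recruits a phosphatase to MDM2 (ENSG00000113328, chr5:163437569-163446151), had 238, 202, 141, 238 and 255 CPM in DMSO siNT and ran from 149 to 197 CPM (median 174) in 4OHT siNT with overlap. It fell, at -0.30 log2 (SE 0.12, edgeR adjusted p 0.0435), and that call was lost without any 1 of 10 libraries, 4OHT siNT 2-1VM, 4-1VM, 4-2VM or 4-3VM, 4OHT siSMARCA4 2-1VM, 2-3V or 2-3VM, and DMSO siNT 2-1V, 4-2VM or 4-3VM, with log2 values between -0.30 and -0.23. ZMAT3, an RNA-binding zinc finger protein, was at 0.12 log2 (edgeR adjusted p 0.492) and was not called.

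Of the members in mitochondria, metabolism and autophagy, FDXR, the mitochondrial reductase of ferredoxin (ENSG00000161513, chr17:74862497-74873031), had 29.6, 27.4, 26.4, 24.5 and 30.7 CPM in DMSO siNT and ran from 42.1 to 56.5 CPM (median 46.3) in 4OHT siNT, a rise of 0.80 log2 (SE 0.13, edgeR adjusted p 3.17e-05). DRAM1, a lysosomal membrane protein of autophagy (ENSG00000136048, chr12:101877580-102012130), had 95.3, 76.2, 50.4, 66.2 and 57.3 CPM in DMSO siNT and ran from 43.5 to 47.1 CPM (median 45.1) in 4OHT siNT. It moved the other way, with every 4OHT siNT library below every DMSO library and a difference of -0.62 log2 (SE 0.12, edgeR adjusted p 0.000194). The sestrins, stress proteins that restrain mTORC1, parted: SESN1 fell by 0.37 log2 (edgeR adjusted p 0.0198) and SESN2 rose by 0.24 log2 (edgeR adjusted p 0.0295). SPATA18, a mitochondrial quality control protein, rose by 0.57 log2 (edgeR adjusted p 0.00323). Its groups nearly touched, with at most 26.25 CPM in DMSO siNT and at least 26.28 CPM in 4OHT siNT. TRIAP1, which carries lipid inside mitochondria, rose by 0.54 log2 (edgeR adjusted p 0.00424). TP53I3, a quinone oxidoreductase, rose by 0.35 log2 (edgeR adjusted p 0.0469) and TP53INP1, a stress protein of autophagy, by 0.31 log2 (edgeR adjusted p 0.0404), whereas TIGAR, a phosphatase that slows glycolysis, was at 0.34 log2 (edgeR adjusted p 0.0555).

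Among the genes of DNA repair and nucleotide supply, RRM2B, a ribonucleotide reductase subunit, rose by 0.65 log2 (edgeR adjusted p 0.000823), ASCC3, a helicase of alkylation repair, by 0.38 log2 (edgeR adjusted p 0.00415) with no overlap, and DDB2, which recognises UV damage, by 0.26 log2 (edgeR adjusted p 0.0299). XPC, the partner that recognises lesions for nucleotide excision repair, was at 0.06 log2 (edgeR adjusted p 0.632), the translesion polymerase POLH at -0.06 log2 (edgeR adjusted p 0.588) and the stress protein GADD45A at -0.29 log2 (edgeR adjusted p 0.0600), none of them called. BTG2, an antiproliferative protein, rose by 0.88 log2 (edgeR adjusted p 0.000465), the nuclease AEN by 0.27 log2 (edgeR adjusted p 0.00935), CYFIP2, of the WAVE complex, by 0.79 log2 (edgeR adjusted p 0.00629), the decapping factor DCP1B by 0.39 log2 (edgeR adjusted p 0.000493) with no overlap, and the lipid transporter ABCA12, present below 1 CPM in most libraries, by 1.30 log2 (edgeR adjusted p 0.0252). PHLDA3, which restrains AKT, at 0.14 log2 (edgeR adjusted p 0.582), and RPS27L, a ribosomal protein paralogue, at -0.24 log2 (edgeR adjusted p 0.108), were not called. Besides CCNG1, the calls on TP53I3, TP53INP1, SESN2, DDB2, ABCA12, AEN and PPM1D were each lost on leaving out at least 1 library. AEN was lost only without DMSO siNT 2-1V, at 0.22, and PPM1D only without DMSO siNT 2-2V, at 0.30. ABCA12 was lost without 4OHT siNT 2-2VM or 2-3VM or DMSO siNT 2-2V or 4-3VM, at log2 values of 0.99 to 1.23. DDB2 was lost without 4OHT siNT 2-3VM or 4-2VM or DMSO siNT 2-2VM, 4-2VM or 4-3VM, at 0.19 to 0.25. SESN2 was lost without any of the 4OHT siNT number 2 libraries or DMSO siNT 2-1V, 2-2V or 4-3VM, at 0.20 to 0.23. TP53I3 was lost in 10 such fits and TP53INP1 in 8, all 3 of the 4OHT siNT number 2 libraries and all 3 of the DMSO siNT number 2 libraries among them for both genes, at 0.22 to 0.37. The calls also differed between the siRNA numbers. Tested directly, the difference between the numbers in the change with 4OHT was called at 0 of 35 members, against 1.13% of all genes. In DMSO siNT, number 4 had only libraries 4-2VM and 4-3VM. With number 4 alone, 9 of the rises were not called, among them TRIAP1 at 0.049 log2 (edgeR adjusted p 0.862), TP53INP1 at 0.0016 log2 (edgeR adjusted p 0.994), FDXR at 0.60 log2 (edgeR adjusted p 0.0540) and ASCC3 at 0.28 log2 (edgeR adjusted p 0.169), the others being TP53I3, SESN2, AEN, PPM1D and ABCA12, and FAS, GADD45A and RPS27L were called lower. With number 2 alone, SESN1 was not called, at -0.12 log2 (edgeR adjusted p 0.309), nor were DDB2 and CCNG1, and MDM2, ZMAT3 and TIGAR were called higher. TRIAP1 was at 0.86 log2 with number 2, and SESN1 at -0.76 log2 with number 4.

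The second comparison asked what the knockdown of SMARCA4 did to the p53 targets in cells with active RAS. In 4OHT siSMARCA4 against 4OHT siNT, 11 of 35 members fell and 2 rose, where 24.2% of all genes were called, 13.8% lower and 10.4% higher. The median log2 difference of the members was -0.12, against -0.02 over all genes. Libraries did not overlap for 7 members, against 12% of all genes. Among the VM libraries alone 10 were lower and 3 higher, where 26.9% of all genes were called, 15.3% lower and 11.6% higher. The siSMARCA4 libraries in that fit were 2-1VM, 2-3VM and 4-2VM, mostly of siRNA number 2. The libraries of siRNA number 4 alone gave 1 lower and 3 higher, where 6.02% were called, and siSMARCA4 number 4 against all siNT gave 4 lower and 4 higher, where 10.9% were called. The members that fell were ABCA12, TNFRSF10C, BTG2, CYFIP2, SPATA18, EDA2R, FAS, XPC, SESN1, ASCC3 and DCP1B, and those that rose were RPS27L and DRAM1. Of these 13, all but SESN1 and DCP1B were called whichever single library was left out. SESN1 was lost only without 4OHT siNT 2-3VM, at -0.34, and DCP1B was lost without any 1 of 8 libraries, at -0.23 to -0.21.

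TNFRSF10C, the decoy receptor (ENSG00000173535, chr8:23102921-23117445), had the largest fall among members that averaged at least 1 CPM. The 4OHT siNT libraries held 8.59, 6.27 and 8.27 CPM with number 2 and 5.84, 5.27 and 4.77 CPM with number 4, and those of siSMARCA4 ran from 1.91 to 2.84 CPM (median 2.45). Every siSMARCA4 library was below every siNT library, 2.68-fold lower or -1.42 log2 (SE 0.21, edgeR adjusted p 0.000137). It also ended below DMSO siNT, by -0.56 log2 (edgeR adjusted p 0.0356). Its sequence is close to those of the other TRAIL receptors, so part of its counts may have been divided among them by the counting model. EDA2R (ENSG00000131080, chrX:66595637-66639298) had 29.9, 26.9 and 30.7 CPM with siNT number 2, 24.7, 23.2 and 22.5 CPM with siNT number 4 and ran from 13.4 to 21.9 CPM (median 19.3) with siSMARCA4, a difference of -0.51 log2 (SE 0.13, edgeR adjusted p 0.00994). FAS (ENSG00000026103, chr10:88953813-89029605) had 64.3, 65.3 and 65.9 CPM with siNT number 2 and 44.1, 41.4 and 48.0 CPM with siNT number 4. With siSMARCA4 it ran from 34.4 to 46.5 CPM (median 37.2), overlapping the number 4 controls only, and the difference was -0.49 log2 (SE 0.12, edgeR adjusted p 0.00728). TNFRSF10B, a death receptor as FAS is, was at -0.04 log2 (edgeR adjusted p 0.811) and was not called.

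XPC (ENSG00000154767, chr3:14145147-14178621) had 54.4, 54.9 and 54.1 CPM with siNT number 2 and 50.2, 49.6 and 48.9 CPM with siNT number 4, and with siSMARCA4 it ran from 30.6 to 48.1 CPM (median 38.6). All siSMARCA4 libraries were below all siNT libraries, with a difference of -0.42 log2 (SE 0.09, edgeR adjusted p 0.00284), although library 4-2V came within reach of the controls. ASCC3 fell by 0.41 log2 (edgeR adjusted p 0.00567). DDB2, at 0.17 log2 (edgeR adjusted p 0.211), RRM2B, at -0.07 log2 (edgeR adjusted p 0.758), POLH, at -0.01 log2 (edgeR adjusted p 0.965), and GADD45A, at -0.21 log2 (edgeR adjusted p 0.233), were not called. ASCC3 was not called against siNT number 4 alone, at -0.28 log2 (edgeR adjusted p 0.0652).

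BTG2 (ENSG00000159388, chr1:203305491-203309602) had 57.3, 55.1 and 59.3 CPM with siNT number 2 and 34.7, 27.0 and 35.6 CPM with siNT number 4 against a range from 22.2 to 30.5 CPM (median 25.1) with siSMARCA4. The 5 DMSO siNT libraries held 27.4, 21.3, 31.3, 20.3 and 21.0 CPM, so that the siSMARCA4 libraries stood in the DMSO range. The log2 fold change was -0.80 (SE 0.17, edgeR adjusted p 0.00298) and the remaining difference from DMSO siNT was 0.09 log2 (edgeR adjusted p 0.719). SPATA18 (ENSG00000163071, chr4:52051304-52097299) had 36.5, 31.7 and 33.9 CPM with siNT number 2, 27.5, 26.3 and 31.6 CPM with siNT number 4 and ran from 16.2 to 28.5 CPM (median 18.5) with siSMARCA4. It fell by 0.59 log2 (SE 0.14, edgeR adjusted p 0.00558), and siSMARCA4 differed from DMSO siNT by -0.02 log2 (edgeR adjusted p 0.903). CYFIP2 fell by 0.75 log2 (edgeR adjusted p 0.0164) and likewise differed from DMSO siNT by 0.04 log2 (edgeR adjusted p 0.897), and SESN1, which had already fallen with 4OHT, fell by 0.42 log2 (edgeR adjusted p 0.0190). ABCA12 fell most, by 3.24 log2 (SE 0.53, edgeR adjusted p 0.000320), but its siNT libraries ran from 0.114 to 1.02 CPM (median 0.492) and its siSMARCA4 libraries from 0.0201 to 0.0783 CPM (median 0.0490), where single libraries held few counts. No siSMARCA4 library reached the minimum count of 10 at ABCA12, so the gene passed the filter through the siNT libraries alone. Its fall is a description only, and this limit holds wherever ABCA12 is counted among the falls.

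The members that rose were RPS27L and DRAM1. RPS27L (ENSG00000185088, chr15:63125872-63158021) ran from 109 to 147 CPM (median 126) in 4OHT siNT and from 159 to 201 CPM (median 193) in 4OHT siSMARCA4. The groups did not overlap and the rise was 0.58 log2 (SE 0.12, edgeR adjusted p 0.00185). RPS27L resembles RPS27 and its processed copies, so part of its counts may have been divided by the counting model. DRAM1 ran from 43.5 to 47.1 CPM (median 45.1) in 4OHT siNT and from 56.5 to 70.3 CPM (median 63.4) in 4OHT siSMARCA4, which lay within the DMSO range. It rose by 0.50 log2 (SE 0.11, edgeR adjusted p 0.00396) and was the 1 member that fell with 4OHT and rose with the knockdown. At MDM2 the siSMARCA4 libraries ran from 112 to 177 CPM (median 126), and the difference from 4OHT siNT was 0.30 log2 (SE 0.11, edgeR adjusted p 0.0599) with no call, but the call was gained without 4OHT siNT 2-2VM, at 0.35, without 4OHT siNT 2-3VM or without 4OHT siSMARCA4 2-3VM, both at 0.34. In other fits without 1 library the edgeR adjusted p reached 0.140, and over all alternatives the log2 value ran from -0.02 to 0.70. It was 0.13 log2 (edgeR adjusted p 0.499) with siSMARCA4 number 2 and 0.45 log2 (edgeR adjusted p 0.0246) with number 4. The highest library, 4-3V, stood apart from the others of its group, which lay between 112 and 134 CPM. GDF15, which ran from 1176 to 1684 CPM (median 1537) in siSMARCA4, at 0.09 log2 (edgeR adjusted p 0.635), and CCNG1, which ran from 164 to 202 CPM (median 179.6), at 0.04 log2 (edgeR adjusted p 0.829), were not called. PLK2 was lower in all siSMARCA4 libraries than in any siNT library, from 199.9 to 242 CPM (median 218), and yet not called, at -0.26 log2 (edgeR adjusted p 0.132). Also not called were FDXR at -0.31, PPM1D at -0.29, PHLDA3 at -0.22, SESN2 at -0.19 and TP53INP1 at -0.12 log2. The same held for AEN at -0.07, ZMAT3 at -0.05, TIGAR at 0.03, TRIAP1 at 0.04 and TP53I3 at 0.08 log2. Their edgeR adjusted p values lay between 0.0592 and 0.918. DCP1B fell by 0.24 log2 (edgeR adjusted p 0.0348).

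**Figure D4:**
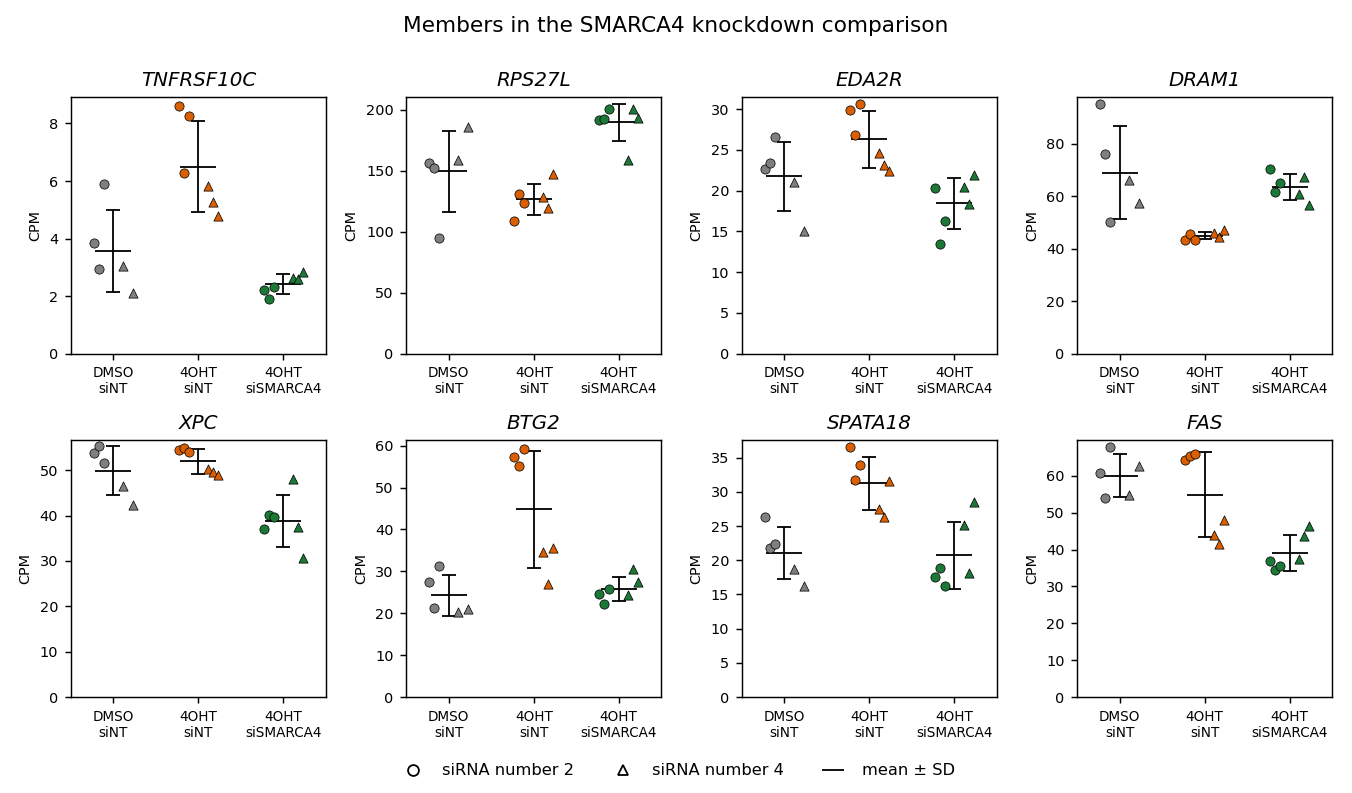
CPM in each library (circles, siRNA number 2; triangles, number 4) with the mean and SD, for the 5 members called between 4OHT siSMARCA4 and 4OHT siNT with no overlap and at least 1 CPM on average, followed by BTG2, SPATA18 and FAS, which were added after their values were seen. TNFRSF10C, EDA2R and XPC are lower and RPS27L and DRAM1 higher in every siSMARCA4 library than in any 4OHT siNT library, and in BTG2 and FAS the circles of 4OHT siNT stand apart above the triangles.

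Set side by side, the comparisons share the 4OHT siNT libraries. Of the 22 members that rose with 4OHT, 7 fell with siSMARCA4 (TNFRSF10C, BTG2, CYFIP2, SPATA18, ABCA12, ASCC3 and DCP1B), 15 were not called and 0 rose. Calls in both comparisons in opposite directions were made for 9.84% of all genes, and for 8 of 35 members with DRAM1 added to the 7. XPC, EDA2R and FAS fell with siSMARCA4 and were not called with 4OHT. For FAS this rests on the number 2 controls: among the number 4 libraries alone it fell with 4OHT, at -0.45 log2 (edgeR adjusted p 0.0252), and was at -0.03 log2 (edgeR adjusted p 0.918) with siSMARCA4. The 5 members with the largest rise with 4OHT, GDF15, PLK3, SUSD6, ABCA12 and NINJ1, had log2 differences with siSMARCA4 of 0.09, -0.00, -0.01, -3.24 and 0.21 in that order, of which that of ABCA12 was called. Against DMSO siNT directly, 4OHT siSMARCA4 had 15 members higher and 6 lower, where 55.1% of all genes were called, 26.5% higher and 28.6% lower. MDM2 was among those higher, by 0.37 log2 (edgeR adjusted p 0.0120).

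The siRNA numbers bear on the knockdown result. Between siSMARCA4 number 2 and number 4, 0 of 35 members were called, where 0.0462% of all genes were, 0.0205% higher and 0.0257% lower with number 2, and 5 members had an unadjusted p under 0.05, as did 11.1% of all genes. DESeq2 also called 0 members, and 0.953% of all genes. The share of all genes depended on single libraries, at 3.36% without 4OHT siSMARCA4 4-2VM and 0.387% without 2-3V. Against all 6 siNT libraries in 4OHT, siSMARCA4 number 2 had 12 members lower and 2 higher, where 22.7% of all genes were called, 13.5% lower and 9.23% higher, and number 4 had 4 lower and 4 higher, where 10.9% were, 6.06% lower and 4.84% higher. The 4 lower with number 4 were BTG2, XPC, TNFRSF10C and ABCA12, and the 4 higher were MDM2, RPS27L, DRAM1 and NINJ1. SPATA18, EDA2R, FAS, SESN1, SESN2, CYFIP2, ASCC3 and DCP1B were lower with number 2 and not called with number 4. SPATA18 was at -0.83 log2 (edgeR adjusted p 0.00126) with number 2 and -0.38 log2 (edgeR adjusted p 0.111) with number 4. The non-targeting controls were then compared by number, a comparison added after the data were seen. In 4OHT, siNT number 2 was higher than number 4 at 8 members and lower at 1, where 3.56% of all genes were called, 2.77% higher and 0.786% lower. The members higher with number 2 were SESN1, ZMAT3, FAS, BTG2, RRM2B, TIGAR, ABCA12 and CYFIP2, and PLK3 was lower. At ZMAT3 the number 2 controls held 205, 203 and 210.0 CPM and the number 4 controls 131, 122 and 137 CPM. The siSMARCA4 libraries, from 138 to 189.6 CPM (median 161), fell between them. PLK3 had 116, 118 and 116 CPM with number 2 and 163, 181 and 160.3 CPM with number 4, and the siSMARCA4 libraries ran from 131 to 162 CPM (median 137), above every number 2 control and reaching into the number 4 controls. In DMSO the controls differed at 1 member, CYFIP2, where 0.0565% of all genes were called, 0.0462% higher and 0.0103% lower. The difference between 4OHT and DMSO in this contrast of controls was itself called at 0 members, with 13 at an unadjusted p under 0.05, as were 24.5% of all genes, where 1.13% of all genes were called, 0.755% higher and 0.38% lower.

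The knockdown was therefore also set against each control number, a comparison added after these values were seen. Against the 3 siNT number 2 libraries, 14 members were lower and 3 higher, where 17.6% of all genes were called, 10.7% lower and 6.91% higher. Against the 3 number 4 libraries, 7 were lower and 5 higher, where 26.1% of all genes were called, 13.3% lower and 12.8% higher. BTG2, XPC, TNFRSF10C, SPATA18 and ABCA12 were lower against both, and RPS27L and DRAM1 were higher against both. Of these, SPATA18 was called lower with siSMARCA4 number 2 only, as given above. For BTG2 the log2 difference was -1.15 against number 2 and -0.33 against number 4, and for TNFRSF10C it was -1.67 and -1.13. SESN1, FAS, RRM2B, FDXR, PPM1D, EDA2R, CYFIP2 and ASCC3 were lower against number 2 and not called against number 4. FAS was at -0.74 log2 (edgeR adjusted p 9.84e-05) and -0.19 log2 (edgeR adjusted p 0.181). DCP1B was lower, and MDM2 and TIGAR were higher, against number 4 and not called against number 2. ZMAT3 and PLK3 were called in opposite directions, ZMAT3 at -0.35 log2 (edgeR adjusted p 0.0146) against number 2 and 0.32 log2 (edgeR adjusted p 0.0201) against number 4, and PLK3 at 0.28 log2 (edgeR adjusted p 0.0184) and -0.24 log2 (edgeR adjusted p 0.0283). Between libraries of number 4 alone, 3 against 3, the 1 member called lower was TNFRSF10C, and MDM2, RRM2B and DRAM1 were higher, where 6.02% of all genes were called, 2.38% lower and 3.64% higher. Without a call in these libraries, RPS27L was at 0.52 log2 (edgeR adjusted p 0.0541) and XPC at -0.32 log2 (edgeR adjusted p 0.231), near their values over all libraries, and BTG2 was at -0.21 log2 (edgeR adjusted p 0.412). Over all alternatives, the weakest log2 values of the other falls were -1.97 for ABCA12, -0.94 for TNFRSF10C and -0.22 for SPATA18. They were -0.18 for EDA2R, -0.16 for ASCC3 and DCP1B, -0.12 for CYFIP2, -0.03 for FAS and 0.02 for SESN1. Between libraries of number 2 alone, 14 members were lower and 3 higher, where 22.9% of all genes were called, 12.1% lower and 10.7% higher.

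**Figure D5:**
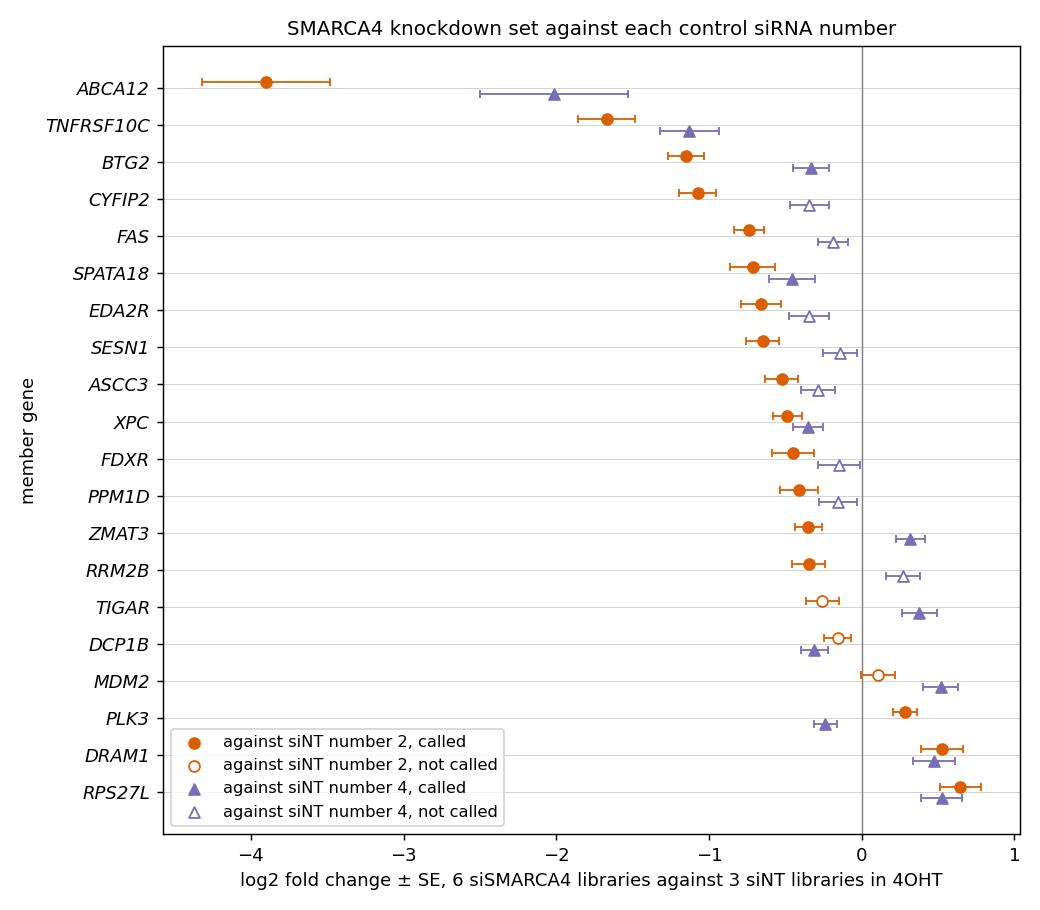
Log2 fold change with its SE of the 6 siSMARCA4 libraries against the 3 siNT libraries of number 2 (circles) and the 3 of number 4 (triangles) in 4OHT, for the 20 members called in either, with filled symbols for an adjusted p under 0.05. ABCA12, TNFRSF10C, BTG2, SPATA18 and XPC have both symbols filled below 0, DRAM1 and RPS27L have both filled above 0, and ZMAT3 and PLK3 have filled symbols on opposite sides.

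Of 25 regulators and cofactors of p53, 23 were tested, TP63 and TP73 being too low. With 4OHT 4 rose and 5 fell, 39.1% called against 54.4% of all genes, and with siSMARCA4 2 rose and 1 fell, 13% called against 24.2% of all genes. MDM4, which binds and restrains p53, was at -0.11 log2 (edgeR adjusted p 0.495) with 4OHT and rose by 0.36 log2 (edgeR adjusted p 0.0410) with siSMARCA4, with a difference of 0.42 log2 (edgeR adjusted p 0.0794) against siNT number 2 alone and 0.31 log2 (edgeR adjusted p 0.161) against number 4 alone. Against all siNT, MDM4 was at 0.18 log2 (edgeR adjusted p 0.379) with siSMARCA4 number 2 and 0.52 log2 (edgeR adjusted p 0.0206) with number 4. RCHY1, another p53 ubiquitin ligase, rose by 0.29 log2 (edgeR adjusted p 0.0458) with siSMARCA4, but it was higher with siNT number 2 than number 4, by 0.44 log2 (edgeR adjusted p 0.0279), and the knockdown difference was 0.08 log2 (edgeR adjusted p 0.553) against number 2 and 0.52 log2 (edgeR adjusted p 0.000800) against number 4. CHEK1, the checkpoint kinase, was the 1 regulator called in both, at -0.96 log2 (edgeR adjusted p 1.44e-07) and -0.42 log2 (edgeR adjusted p 0.00405). Of 27 p53 targets that are not members, 24 were tested, of which 12 rose and 6 fell with 4OHT, where 27% of all genes rose and 27.4% fell. With siSMARCA4 0 rose and 12 fell, where 10.4% of all genes rose and 13.8% fell, with a median log2 difference of -0.27 against -0.02 over all genes. With siSMARCA4 number 4 against all siNT 5 fell and 0 rose, where 6.06% of all genes fell, at a median of -0.18, and with all siSMARCA4 against siNT number 4, 8 fell and 1 rose, where 13.3% fell, at a median of -0.25. ACER2 and TRIM32, given next, were called in neither of these, with edgeR adjusted p values between 0.0946 and 0.403, and TRIM22 was not called with siSMARCA4 number 4, at -0.64 log2 (edgeR adjusted p 0.0578). PIDD1, an adaptor of caspase-2 activation, rose by 0.91 log2 (edgeR adjusted p 1.22e-07) and fell by 0.96 log2 (edgeR adjusted p 1.78e-06), ACER2, an alkaline ceramidase, rose by 1.85 log2 (edgeR adjusted p 1.3e-06) and fell by 0.78 log2 (edgeR adjusted p 0.00987), and TRIM32, a ubiquitin ligase, rose by 0.58 log2 (edgeR adjusted p 2.35e-05) and fell by 0.27 log2 (edgeR adjusted p 0.0317). FUCA1, a lysosomal fucosidase, at -0.90 log2 (edgeR adjusted p 2.87e-05) and -1.15 log2 (edgeR adjusted p 3.17e-05), IER5, an immediate early gene, at -0.61 log2 (edgeR adjusted p 0.000478) and -0.81 log2 (edgeR adjusted p 0.000186), TRIM22, an antiviral ubiquitin ligase, at -0.84 log2 (edgeR adjusted p 0.00327) and -0.996 log2 (edgeR adjusted p 0.00270), and MR1, which presents metabolites to T cells, at -1.97 log2 (edgeR adjusted p 2.94e-08) and -1.003 log2 (edgeR adjusted p 0.000818), fell in both.

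CDKN1A, the CDK inhibitor p21 that was left out of the members, rose by 1.23 log2 (edgeR adjusted p 1.65e-10) with 4OHT and fell by 0.42 log2 (edgeR adjusted p 0.000448) with siSMARCA4. PMAIP1 rose by 0.71 log2 (edgeR adjusted p 7.16e-05) with 4OHT, and BAX and BBC3, the other BCL2 family genes left out, were not called in either comparison.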

How the data were processed

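RNA was sequenced as strand-specific, poly(A)-selected, 110-bp read pairs in 17 libraries. The authors deposited 1 table per library of expected counts (estimated read-pair counts, already whole numbers, not normalised) per gene and repeat locus. Per the study's methods and the submitters' processing notes, reads were trimmed with cutadapt 4.7, aligned to GRCh38 with HISAT2 2.2.1 with multiple alignments kept, and counted by TElocal, which divides multi-mapping pairs by maximum likelihood and uses strand. The methods name an Ensembl gene annotation, but some gene identifiers are of a later one, and 62700 of 62754 matched GENCODE 44, which gave symbols and positions. Counts of genes and of summed repeat subfamilies were joined and filtered by filterByExpr (minimum count 10, minimum total 15), which left 19473 genes and 1026 subfamilies, and were scaled by TMM factors of 0.949 to 1.08. edgeR 4.0.16 (R 4.3.3) fitted quasi-likelihood models over all 17 libraries, with a term for each group. p-values were adjusted by Benjamini-Hochberg over all genes tested, and a call is an adjusted p under 0.05. The SE of a log2 fold change was its size over the square root of F. The contrasts between siRNA numbers used the same model with groups divided by number. DESeq2 1.42.0, other scalings and filters, subsets of libraries, V or VM as a covariate, a block and leaving out each library were alternatives. The fit was tested on simulated data. Total counts per library limit the precision of low genes such as ABCA12.

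Groups came from the labels. The members, the other gene lists and the tests were chosen with earlier results of these data known. Every member is given. Members with full values were, in each of the main contrasts, up to 8 with the largest difference among those called, without overlap and with a mean of at least 1 CPM, with MDM2, GDF15 and CCNG1 added; BTG2, SPATA18, FAS, ZMAT3 and PLK3 in the knockdown comparison were added after their values were seen. Of the other pathway genes, counted as lists, values are given for those called in both contrasts, for MDM4, and for the p53 targets left out of the members (CDKN1A, PMAIP1, BAX and BBC3), with RCHY1 added after its values were seen. 1 gene under this rule is not reported here. p53 response elements were searched around the start of each gene's canonical transcript in GENCODE 44 on GRCh38 (Python 3.11.15).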

Additional observations from a re-analysis of the deposited data

Results flagged for a closer look

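In each of 105 pairs of a member and a group, the highest or lowest library was compared with the rest by Dixon's gap criterion, which chance alone passes in about 1 in 20 groups. It was passed in 5 pairs. MDM2 in 4OHT siSMARCA4 library 4-3V was at 177 CPM while the other libraries of the group lay between 112 and 134 CPM. DCP1B in the same library was at 17.8 CPM against 13.5 to 14.9 CPM. RPS27L in 4OHT siSMARCA4 library 4-2V was low, at 159 CPM against 191 to 201 CPM, and was still above every 4OHT siNT library. DDB2 in 4OHT siNT library 4-2VM was at 29.5 CPM against 25.2 to 26.7 CPM. PLK2 in 4OHT siNT library 4-3VM was at 282 CPM against 258 to 264 CPM.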

How the results depend on the processing

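The counts of members called were recomputed under each alternative. DESeq2's size factors or Wald test, no low-count filter, genes alone, only the groups compared, V or VM as a covariate and VM libraries alone kept each count within 1.5 times the reported one, and 0 members were called between the siSMARCA4 numbers in each of the fits made for that contrast. Leaving out 1 library at a time gave 2 to 3 higher and 10 to 12 lower for siSMARCA4 against siNT, 17 to 22 higher and 2 to 4 lower for 4OHT against DMSO, and 11 to 15 higher and 5 to 7 lower for 4OHT siSMARCA4 against DMSO siNT. In that order, the same fits called 19.1% to 27.1%, 50.6% to 56.2% and 50.9% to 56% of all genes. Such fits also gained calls, in the knockdown for MDM2, PPM1D, FDXR, NINJ1 and PLK2, and with 4OHT for TIGAR, GADD45A and RPS27L, the last without DMSO siNT 2-2VM, at -0.40. Between libraries that share a replicate number, correlations of deviations lay between -0.09 and 0.06 in the comparisons with siSMARCA4. For 4OHT siNT against DMSO siNT they were 0.36, -0.15 and 0.57 for replicates 1, 2 and 3. In DMSO, replicate 1 was of siRNA number 2 only and replicate 3 of number 4 only, so whether replicates paired there was not settled. With a replicate block 2 members were higher and 11 lower with siSMARCA4, where 21.8% of all genes were called, and 20 higher and 3 lower with 4OHT, where 54% were. With siRNA number 4 alone, 1 member was lower with siSMARCA4, and 13 were higher and 6 lower with 4OHT, and with number 2 alone 3 were higher and 14 lower with siSMARCA4, and 24 higher and 1 lower with 4OHT. Alternatives added after the data were seen gave, for siSMARCA4 number 4 against all siNT, 4 higher and 4 lower, and against siNT number 4, 5 higher and 7 lower. Where the reported or the alternative value was called, signs turned for SESN1 (0.0196) and RRM2B (0.46) with number 4 alone, for ZMAT3 (0.32) against siNT number 4, and for PLK3 with number 2 alone (0.25) or against siNT number 2 (0.28). Signs of values that were not called turned more widely. In all, 17 members changed sign in at least 1 alternative in the knockdown, in up to 19 alternatives for PLK3, and 6 did so with 4OHT, FAS, MDM2 (-0.26 to 0.27), PHLDA3, TIGAR, XPC and ZMAT3. The subsets by number hold fewer libraries; further causes were not tested.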
